A study of Sus scrofa with 6 samples.

Results

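Fatty acid synthesis and desaturation enzymes are described here in the abdominal aorta of Wuzhishan miniature pigs. The 10 genes ACLY, ACACA, FASN, SCD, ELOVL5, ELOVL6, FADS1, FADS2, ME1 and AACS were taken by name from the 30477 genes of the deposited expression table, and all 10 had a row of their own and passed the filter on low values, as did 15384 genes in all. Cells build fatty acids in the cytosol from acetyl-CoA. ATP citrate lyase and acetoacetyl-CoA synthetase feed the pathway with carbon, malic enzyme 1 supplies NADPH, acetyl-CoA carboxylase makes malonyl-CoA, and fatty acid synthase joins the units into palmitate. Elongases of the ELOVL family then lengthen the chain, stearoyl-CoA desaturase places the first double bond, and FADS1 and FADS2 desaturate the essential polyunsaturated fatty acids that become arachidonic acid. Many of these genes are known targets of the SREBP transcription factors, and adipocytes and hepatocytes are known for high levels of them.

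The NC libraries came from 3 male pigs on normal chow. The HFCF libraries came from 3 male pigs on a diet high in fat, cholesterol and fructose. That diet was made by adding shortening, egg yolk powder, cholesterol and fructose to the chow, and each diet was fed for 6 months. The paper describes more pigs per diet group than the 3 sequenced, and how those were chosen is not stated. No transgene or drug was used. The sample labels give an age of 3 to 4 months, and the methods give an older age at acquisition. The samples of a group are numbered and the methods speak of several pigs, so each library was read as 1 pig, and if that did not hold the p-values would measure technical spread only.

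The values are FPKM, a unit that scales fragments to exon length and to the mapped reads of the library. Levels can be compared between genes of a library, while comparisons between pigs also depend on the scaling of the libraries. Depth per library was not given with the values. Steps between low values gave no usable relative depth, since the most frequent ratio to the first NC pig held for only 15 to 49 of 1277 to 2098 low genes in the other libraries. The FPKM of all genes summed to 272207 to 287141 in the NC group and 330222 to 338690 in the HFCF group. Correlations of log2 values between libraries, across genes that are not independent replicates, were 0.957 to 0.970 within NC, 0.927 to 0.955 within HFCF and 0.841 to 0.910 between the groups. Differences are given as log2 fold changes of FPKM + 0.1, HFCF against NC, with limma's moderated test, and a gene was called at a Benjamini-Hochberg adjusted p under 0.05 over all 15384 genes. The added 0.1 pulls the fold change of a low gene towards 0, and ME1 and ELOVL6 lie lowest here. With FPKM as deposited, the typical tested gene had a log2 fold change of 0.32 (median). Median-ratio scaling moved this median to -0.01, quantile normalization to -0.07 and TPM to 0.07, so 0.32 stands for no change relative to the typical gene.

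In the HFCF group, FASN, FADS1, ACACA and AACS fell. No enzyme of the 10 was called higher, though SCD was once the third HFCF pig was left out. When the first and second NC pigs were both left out, the log2 fold change of FASN shrank from -1.97 to -1.12. That of FADS1 was then -1.81 in place of -1.89, of ACACA -1.28 in place of -1.40 and of AACS -1.84 in place of -1.32. The calls were lost in that fit, which leaves 1 NC pig and so cannot decide on calls. Of the 10, 4 were called lower, against 6.16% of all tested genes, and 0 were called higher by limma, against 22.8% of all tested genes, with 0 higher at an unadjusted p under 0.05 as well. The same 4 genes passed the study's own thresholds, a ratio of group mean FPKM under 0.5 with an unadjusted p under 0.05, which 4.82% of tested genes passed in that direction. In 5 genes, the 4 named and ACLY, every HFCF pig lay below every NC pig, which held for 12.1% of tested genes. No member had every HFCF pig above every NC pig, which held for 36.1%. The median log2 fold change of the 10 genes was -0.62, or -0.94 relative to the median of all genes. RNA came from whole vessel wall, in which fewer cells of a type and less RNA per cell cannot be told apart.

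**Figure D1:**
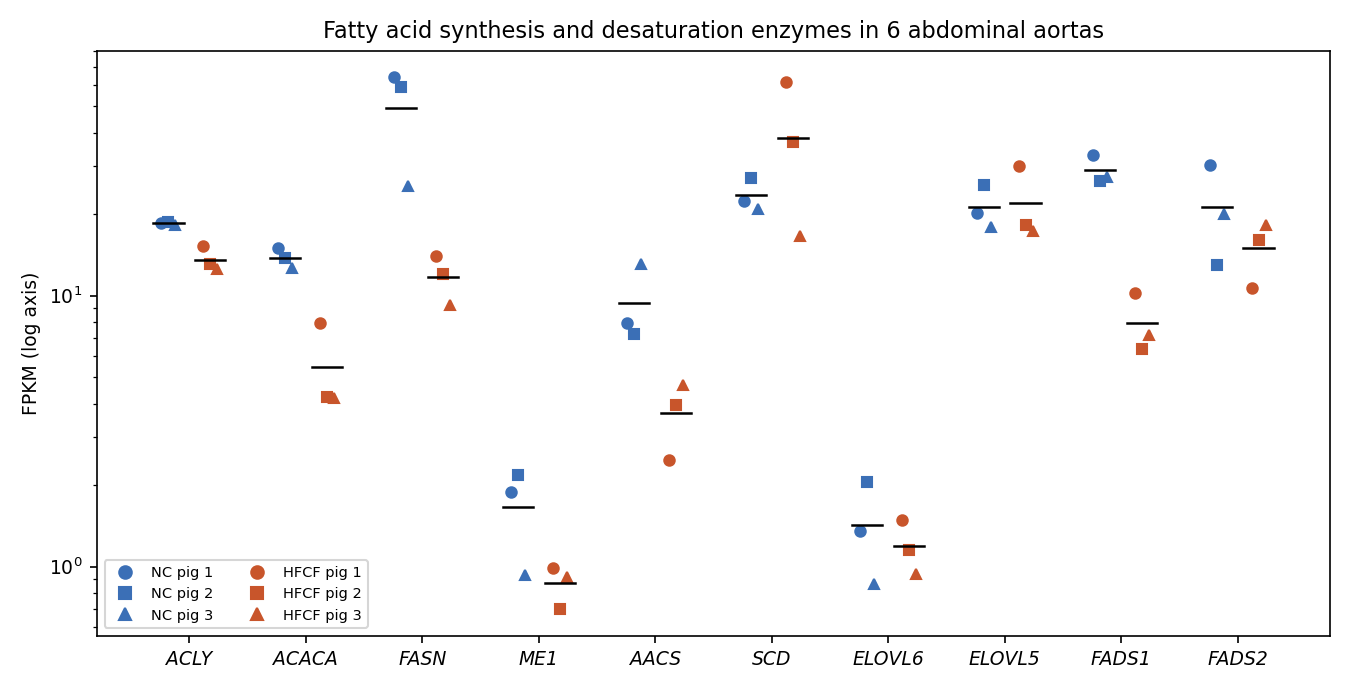
FPKM of the 10 enzymes (log axis) in each of the 3 NC pigs (blue) and 3 HFCF pigs (orange), with the marker shape giving the pig's number within its group and the black line the group mean. FASN, FADS1, ACACA, AACS and ACLY show no overlap between the groups, while SCD, ELOVL5, ELOVL6, FADS2 and ME1 do.

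Of the suppliers of carbon and NADPH, AACS was called lower and ACLY and ME1 were not. ACLY (ENSSSCG00000017421) cleaves citrate exported from mitochondria into cytosolic acetyl-CoA. Its level was 18.6, 18.7 and 18.2 FPKM in the NC pigs and 15.2, 13.1 and 12.6 FPKM in the HFCF pigs. The NC values were nearly identical and the HFCF values all lay below them. The means were 18.5 ± 0.232 and 13.6 ± 1.40 FPKM (SD, n = 3 each). The difference of -0.44 on the log2 scale (standard error 0.14) missed a call narrowly, at an adjusted p of 0.0503 in limma. It was called lower after each of the 3 scalings, with log2 fold changes of -0.63 to -0.80, and also without the first HFCF pig (-0.52, adjusted p = 0.0370, limma).

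AACS (ENSSSCG00000009755) activates the ketone body acetoacetate in the cytosol for lipid synthesis. It was 7.91, 7.25 and 13.1 FPKM in the NC pigs and 2.47, 3.95 and 4.68 FPKM in the HFCF pigs. The third NC pig stood highest, and the groups did not overlap. On the log2 scale the difference was -1.32 (standard error 0.32, adjusted p = 0.0217, limma), a 2.54-fold lower group mean. The call was lost without the first NC pig (-1.42, adjusted p = 0.0581, limma) and without the third NC pig (-1.06, adjusted p = 0.0540, limma).

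ME1 (ENSSSCG00000004454), the cytosolic malic enzyme, was a low transcript at 1.88, 2.18 and 0.930 FPKM in the NC pigs and 0.986, 0.697 and 0.918 FPKM in the HFCF pigs. The third NC pig lay among the HFCF pigs. The log2 fold change was -0.80 (95% confidence interval -1.64 to 0.05, adjusted p = 0.136, limma). Without the third NC pig it was -1.15 and was called (adjusted p = 0.0382, limma), as it was after quantile normalization (-1.44).

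Both enzymes that commit acetyl-CoA to fatty acids fell. ACACA (ENSSSCG00000017694), the cytosolic acetyl-CoA carboxylase that makes malonyl-CoA, was 15.0, 13.8 and 12.7 FPKM in the NC pigs and 7.90, 4.22 and 4.19 FPKM in the HFCF pigs. The first HFCF pig kept the highest level of its group but lay well under the lowest NC pig. The means were 13.8 ± 1.12 and 5.44 ± 2.13 FPKM (SD, n = 3 each), a 2.55-fold difference. Its log2 value was -1.40, with a standard error of 0.27 and an adjusted p of 0.0103 in limma.

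FASN (ENSSSCG00000029944), the multifunctional enzyme that makes palmitate, was the most abundant of the 10 transcripts in the NC group. It was 64.0, 59.2 and 25.4 FPKM in the NC pigs and 14.0, 12.0 and 9.26 FPKM in the HFCF pigs. The NC group was split, with the third pig well under the others, yet that pig was still above every HFCF pig. With that pig as the only NC pig the log2 fold change was -1.12. ADIPOQ and PLIN1, genes of adipocytes named after their values were seen, were low in that pig too. Whether this bears on FASN was not tested. The group means of all pigs differed 4.22-fold, from 49.5 ± 21.1 to 11.7 ± 2.38 FPKM (SD, n = 3 each). FASN had a log2 fold change of -1.97, with a standard error of 0.36 and an adjusted p of 0.00937 in limma, and 1.14% of tested genes had a lower one. Without a filter on low values the calls of FASN, ACACA and AACS were lost, with adjusted p-values of 0.0665, 0.0585 and 0.104 (limma).

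SCD and ELOVL6, which desaturate and elongate saturated chains, were not called. SCD (ENSSSCG00000010554), which turns stearate and palmitate into oleate and palmitoleate, was 22.4, 27.3 and 20.9 FPKM in the NC pigs and 61.5, 36.9 and 16.6 FPKM in the HFCF pigs. The first HFCF pig had the highest level of all 6 and the third HFCF pig the lowest. The log2 fold change was 0.52 (95% confidence interval -0.51 to 1.55, adjusted p = 0.402, limma). Without the third HFCF pig it was 1.03 and was called higher (adjusted p = 0.0375, limma).

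ELOVL6 (ENSSSCG00000036236), the elongase that lengthens palmitate to stearate, was 1.35, 2.05 and 0.861 FPKM in the NC pigs and 1.49, 1.15 and 0.940 FPKM in the HFCF pigs. All 3 HFCF pigs lay within the NC range. The log2 fold change was -0.18 (95% confidence interval -1.02 to 0.66, adjusted p = 0.735, limma) and turned to 0.11 without the second NC pig.

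The polyunsaturated branch was uneven. FADS1 (ENSSSCG00000024015), the delta-5 desaturase that completes arachidonic acid, was 33.1, 26.6 and 27.4 FPKM in the NC pigs and 10.2, 6.36 and 7.17 FPKM in the HFCF pigs. Both groups were tight and lay far apart. The means were 29.1 ± 3.56 and 7.90 ± 2.0 FPKM (SD, n = 3 each), a 3.68-fold difference. In limma this was -1.89 on the log2 scale, with a standard error of 0.21 and an adjusted p of 0.00184. FADS1 was called lower under 15 other settings of scaling, filter, model and single libraries left out, with log2 fold changes of -2.24 to -1.75, and not without the first and second NC pigs together (-1.81, adjusted p = 0.0936, limma).

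FADS2 (ENSSSCG00000013072), the delta-6 desaturase that starts the branch, was 30.4, 13.0 and 20.1 FPKM in the NC pigs and 10.7, 16.0 and 18.2 FPKM in the HFCF pigs. The groups overlapped, and the NC pigs alone spanned a 2.34-fold range. The log2 fold change was -0.45 (95% confidence interval -1.24 to 0.35, adjusted p = 0.354, limma). FADS1 and FADS2 are neighbouring protein-coding genes on chromosome 2 of the Sscrofa11.1 assembly. Of the 2 other genes annotated between them, 0 code for protein.

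ELOVL5 (ENSSSCG00000024149), the elongase between both desaturation steps, was 20.2, 25.7 and 18.0 FPKM in the NC pigs and 30.2, 18.3 and 17.4 FPKM in the HFCF pigs. The first HFCF pig was highest and the others lay within or just under the NC range. The log2 fold change was 0.02 (95% confidence interval -0.58 to 0.61, adjusted p = 0.968, limma), and its sign turned to negative after each of the 3 scalings, at -0.13 to -0.34.

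**Figure D2:**
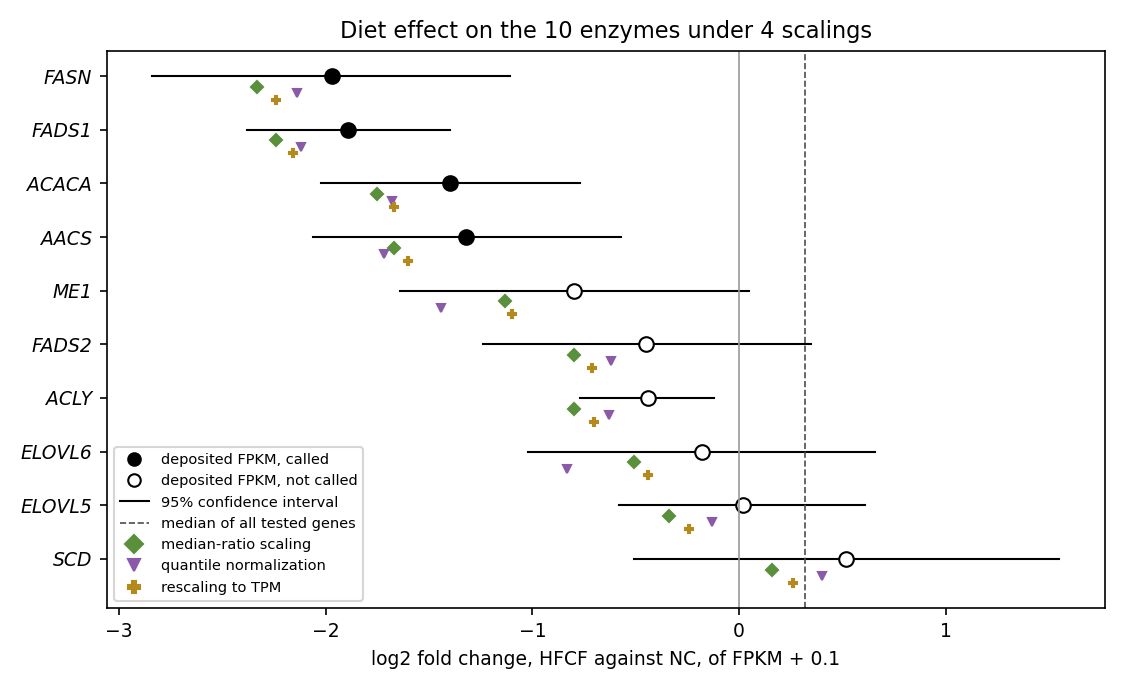
Log2 fold change of FPKM + 0.1, HFCF against NC, for each enzyme, with its 95% confidence interval (line) and a filled circle where the adjusted p was under 0.05. Coloured markers give the same value after 3 other scalings, and the dashed line marks 0.32, the median of all tested genes. FASN, FADS1, ACACA and AACS lie below -1 under every scaling shown, and ELOVL5 changes sign.

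Ratios of a pair of enzymes within a pig do not depend on a scaling factor applied to a whole library. Such ratios were compared for 3 pairs with an exact two-sided permutation test, which with 3 pigs against 3 cannot go below p = 0.1. SCD stood at 0.350, 0.460 and 0.822 times the FPKM of FASN in the NC pigs and at 4.39, 3.08 and 1.79 times in the HFCF pigs. FASN thus exceeded SCD in every NC pig and SCD exceeded FASN in every HFCF pig. The mean log2 ratio rose by 2.50, from -0.97 ± 0.63 to 1.53 ± 0.65 (SD, n = 3 each, exact permutation p = 0.1, adjusted p = 0.15 over the 3 pairs).

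FADS1 stood at 1.09, 2.05 and 1.37 times FADS2 in the NC pigs and at 0.946, 0.399 and 0.395 times in the HFCF pigs. The delta-5 enzyme was thus the higher of the pair in all NC pigs and the lower in all HFCF pigs, by little in the first HFCF pig. The mean log2 ratio fell by 1.44, from 0.53 ± 0.46 to -0.91 ± 0.72 (SD, n = 3 each, exact permutation p = 0.1, adjusted p = 0.15). ELOVL6 stood at 0.0478 to 0.0797 times ELOVL5 in the NC pigs and at 0.0493 to 0.0627 times in the HFCF pigs, with overlapping groups (difference of mean log2 ratios -0.19, exact permutation p = 0.4, adjusted p = 0.4).

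**Figure D3:**
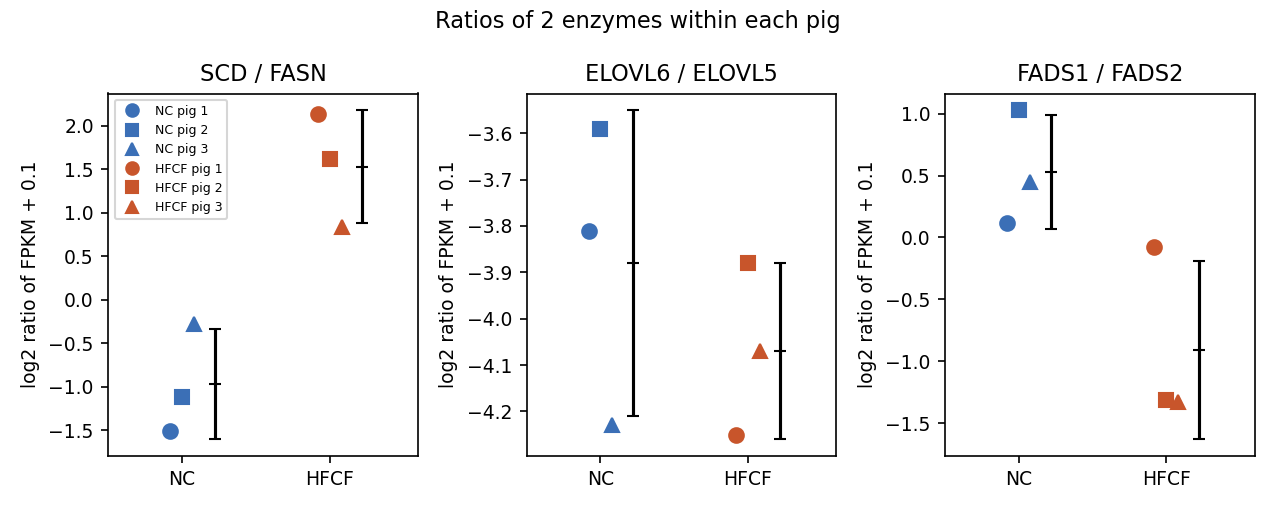
Log2 ratio of FPKM + 0.1 of 2 enzymes within each pig (points, shape giving the pig's number within its group), with the group mean and SD to the right of each group. SCD over FASN and FADS1 over FADS2 separate the groups, with mean differences of 2.50 and -1.44, and ELOVL6 over ELOVL5 does not. Each panel has its own y axis, which does not start at 0.

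The order of the transcripts changed with the diet group. In the NC group the mean levels ran from FASN (49.5 FPKM) and FADS1 (29.1 FPKM) through SCD (23.5 FPKM), ELOVL5 (21.3 FPKM), FADS2 (21.2 FPKM), ACLY (18.5 FPKM), ACACA (13.8 FPKM) and AACS (9.40 FPKM) to ME1 (1.66 FPKM) and ELOVL6 (1.42 FPKM). Neighbours from SCD to ACLY differed by less than the larger of their SDs, as did FASN and FADS1, and ME1 and ELOVL6. In the HFCF group SCD (38.3 FPKM) came first, then ELOVL5 (22.0 FPKM), FADS2 (15.0 FPKM), ACLY (13.6 FPKM), FASN (11.7 FPKM), FADS1 (7.90 FPKM), ACACA (5.44 FPKM), AACS (3.70 FPKM), ELOVL6 (1.19 FPKM) and ME1 (0.867 FPKM). Neighbours from SCD to FASN differed there by less than the larger of their SDs, as did ACACA and AACS.

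Together the 10 transcripts summed to 215, 196 and 158 FPKM in the NC pigs and 155, 113 and 91.9 FPKM in the HFCF pigs. The sums of the groups met at 158 and 155 FPKM without overlapping. FASN made up 29.8%, 30.3% and 16.1% of that sum in the NC pigs, and in the HFCF pigs 9.06%, 10.6% and 10.1%. SCD made up 10.4% to 13.9% in the NC pigs, and in the HFCF pigs 39.7%, 32.8% and 18.1%.

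Markers of other cell types moved between the pigs. Of 20 adipocyte markers, 17 had a row, and their summed level was 562, 750.3 and 275 FPKM in the NC pigs and 474, 319.7 and 472 FPKM in the HFCF pigs. Of 16 tested, PNPLA2 (-0.82) and PLIN4 (-1.60) were called lower and CD36 (2.55) higher. The most abundant were CFD, PNPLA2 and FABP4, and RETN was listed at 0 in 5 of the 6 libraries. CFD and FABP4 are also known from macrophages and endothelium, so 2 more specific genes, named after their values were seen, are given as well. The adipokine ADIPOQ was 39.1, 59.9 and 1.22 FPKM in the NC pigs and 4.08, 0.301 and 4.04 FPKM in the HFCF pigs. The lipid droplet coat protein PLIN1 was 19.1, 33.3 and 0.669 FPKM in the NC pigs and 1.40, 0.245 and 4.46 FPKM in the HFCF pigs. For both genes the first and second NC pigs stood above the other 4 libraries. Counting any margin, they did so for 10 of the 17 markers. Some margins were small, as for PNPLA2, at 111, 121 and 108 FPKM in the NC pigs. How often that order holds over all genes was not counted. Markers without it included SLC2A4, at 31.1, 31.1 and 35.1 FPKM in the NC pigs. The lipase LPL was another, at 8.96, 13.3 and 0.728 FPKM in the NC pigs and 33.9, 17.2 and 14.4 FPKM in the HFCF pigs.

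Among the NC pigs, 7 of the 10 enzymes were lowest in the third pig: FASN, ME1, ELOVL6, SCD, ELOVL5, ACACA and ACLY. The share of all genes lowest in that pig was not counted. The NC pigs spanned 2.34-fold to 2.52-fold for FASN, ME1 and ELOVL6 and at most 1.43-fold for the other 4, and AACS was highest in the third pig. With the first and second NC pigs left out together, an alternative chosen after seeing the data that leaves 1 NC pig and assumes that it varies like the HFCF pigs, the log2 fold change of FASN was -1.12 in place of -1.97 and that of ME1 was -0.10 in place of -0.80. FADS1 was at -1.81, ACACA at -1.28, ACLY at -0.42 and AACS at -1.84. No member was called in that fit (adjusted p = 0.0936 for FADS1 and 0.137 for FASN, limma), which called 8 genes in all. Within the HFCF group, 6 of the 10 enzymes, FASN among them, fell from the first to the second to the third pig. Of the 17 adipocyte markers, 2 did so, LPL and CD36. The share of all genes in that order was not counted. The part of adipose tissue in the fall of FASN was not tested.

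The other marker lists differed by group. All 15 macrophage markers with a row, of 16 listed, were called higher, and their sum was 68.4 to 79.9 FPKM in the NC pigs and 2447, 1094 and 933 FPKM in the HFCF pigs. The highest were C1QC, C1QB and TYROBP, and none was at 0 in all libraries. CD68, chosen after its values were seen, was 3.65 to 5.67 FPKM in the NC pigs and 261, 114 and 98.0 FPKM in the HFCF pigs. Of 11 contractile smooth muscle markers with a row, 8 were called lower and 1 higher, with sums of 16616 to 23998 FPKM in the NC pigs and 8527 to 13479.6 FPKM in the HFCF pigs, led by ACTA2, TAGLN and MYH11. The aortic wall was thus recognisable in every library by its smooth muscle genes. Of 9 endothelial markers with a row, led by PECAM1, CDH5 and NOS3, 0 were called by limma (3 at an unadjusted p under 0.05), and sums were 163 to 299.9 FPKM in the NC pigs and 124 to 299 FPKM in the HFCF pigs. The part of these cell types in the enzyme levels was not tested.

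Hepatocyte and skeletal muscle markers were low apart from APOA1 (25.0 to 83.8 FPKM in the NC pigs and 48.7 to 155 FPKM in the HFCF pigs). ALB did not exceed 3.17 FPKM, and 1 hepatocyte marker of 6 tested, TTR, was called higher at means of 0.0417 and 0.565 FPKM. Of 5 tested skeletal muscle markers 0 were called by limma (1 at an unadjusted p under 0.05). Of 4 tested brown or beige adipocyte markers, COX7A1 was called higher (log2 fold change 3.64) and PRDM16 lower (-0.88), and ELOVL3 was at most 0.0325 FPKM in any library.

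**Figure D4:**
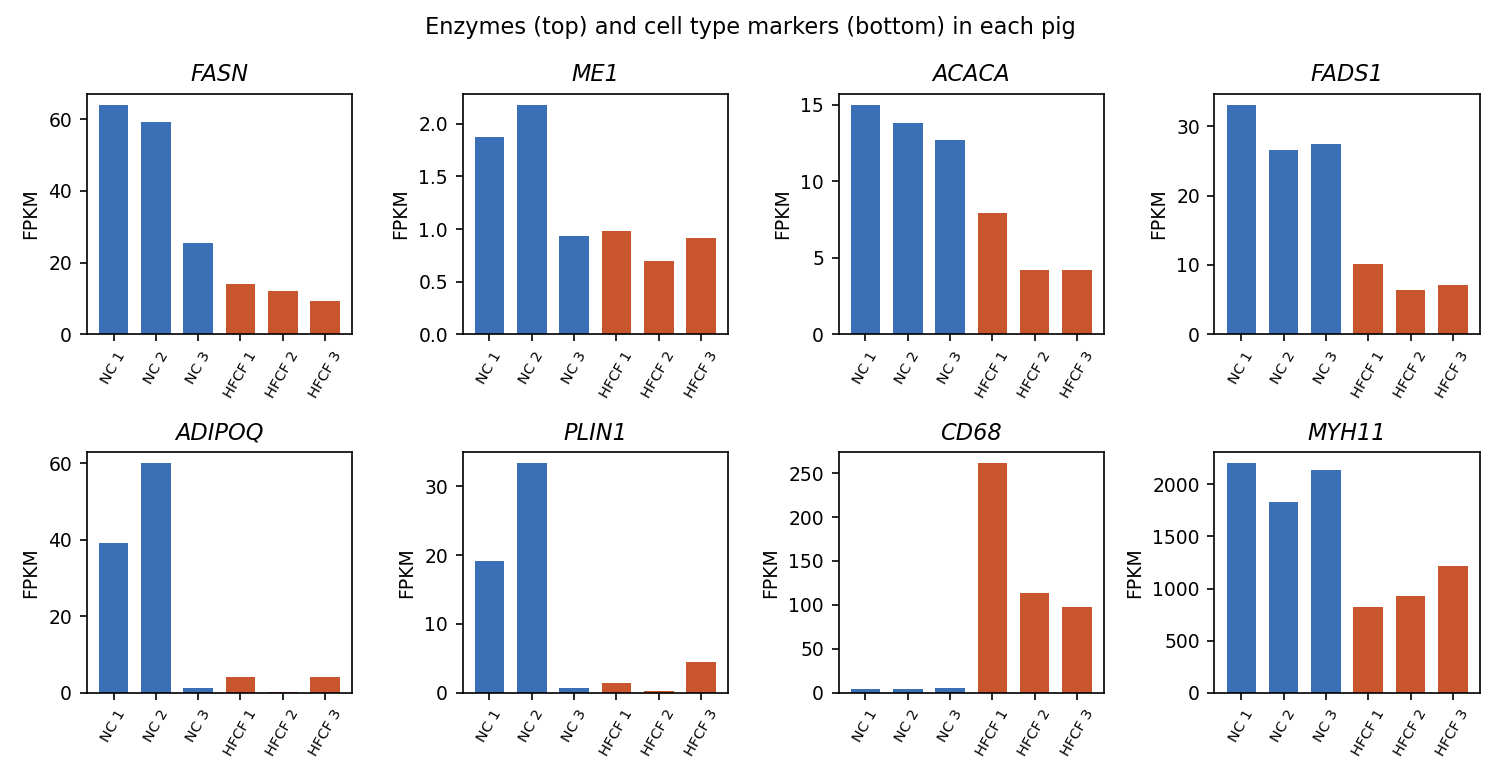
FPKM of 4 enzymes (top row) and of 4 cell type markers (bottom row) in each pig, NC in blue and HFCF in orange, each panel with its own axis from 0. FASN and ME1 are lower in the third NC pig than in the other NC pigs, as are the adipocyte genes ADIPOQ and PLIN1, while ACACA and FADS1 span at most 1.25-fold among the NC pigs. The macrophage gene CD68 is higher and the smooth muscle gene MYH11 lower in all HFCF pigs.

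Counts for the neighbouring steps stand beside 22.8% of all tested genes called higher and 6.16% called lower. Among 11 genes that supply precursors and NADPH, all tested, 2 were called higher and 1 lower, with a median log2 fold change of 0.19 beside 0.32 for all genes. PC, pyruvate carboxylase, which refills mitochondrial oxaloacetate and so citrate, was 30.2, 42.1 and 7.38 FPKM in the NC pigs and 3.37, 3.32 and 7.10 FPKM in the HFCF pigs (log2 fold change -2.27, adjusted p = 0.0381, limma). The third NC pig was again low, and with that NC pig alone its log2 fold change was -0.76. PGD of the pentose phosphate pathway (0.67) and the mitochondrial acetyl-CoA synthetase ACSS1 (1.16) were called higher, and after each of the 3 scalings 0 of the 11 genes were called higher and 3 to 4 lower. The citrate carrier SLC25A1 was 15.2 to 18.4 FPKM in the NC pigs and 8.59 to 13.9 FPKM in the HFCF pigs without reaching a call (-0.65, adjusted p = 0.0593, limma).

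Of 15 tested genes for other elongation and desaturation steps, 3 were called higher and 1 lower (median log2 fold change 0.27). The 3 were the hydroxyacyl-CoA dehydratases HACD2 (0.99), HACD3 (0.95) and HACD4 (3.89), which act in the elongation cycle, and each was called under the same 15 settings but not without the first and second NC pigs together (adjusted p = 0.0899 to 0.123, limma). HACD4 was 0.185 to 0.243 FPKM in the NC pigs and 7.75, 4.36 and 2.78 FPKM in the HFCF pigs. The desaturase SCD5, a paralog of SCD, was called lower (-0.97, adjusted p = 0.0123, limma), at 10.3, 9.01 and 8.96 FPKM in the NC pigs and 5.89, 4.69 and 3.90 FPKM in the HFCF pigs. The difference between SCD5 and SCD was not tested. FADS3, a desaturase of the same family as FADS1 and FADS2, was 82.9 to 115 FPKM in the NC pigs and 53.1 to 81.1 FPKM in the HFCF pigs (-0.50, adjusted p = 0.113, limma).

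Of 14 tested genes for acyl-CoA synthesis and glyceride synthesis, 4 were called higher and 0 lower, with 0 called higher and 1 lower after each of the 3 scalings (median log2 fold change 0.09). They were the long-chain acyl-CoA synthetases ACSL1 (1.18), ACSL4 (1.03) and ACSL5 (0.81) and the glycerol-3-phosphate acyltransferase GPAM (0.96). DGAT2, which makes triglyceride, is named after its values were seen. It was 17.6, 29.9 and 0.584 FPKM in the NC pigs and 4.31, 0.489 and 2.93 FPKM in the HFCF pigs (-1.84, adjusted p = 0.374, limma), with the same pair of NC pigs apart as for ADIPOQ.

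Of 16 tested regulators of lipogenic transcription, 3 were called lower and 3 higher, with a median log2 fold change of -0.08. SREBF2, which encodes the SREBP that mainly drives cholesterol genes, was 38.6, 33.2 and 25.7 FPKM in the NC pigs and 8.30, 5.46 and 7.48 FPKM in the HFCF pigs (-2.18, adjusted p = 0.00151, limma). SREBF1, which encodes the SREBP that mainly drives fatty acid genes, was 13.8, 14.5 and 12.6 FPKM in the NC pigs and 9.54, 9.69 and 7.06 FPKM in the HFCF pigs (-0.64, adjusted p = 0.0330, limma). For both, the groups did not overlap. Whether SREBF2 differed by more than SREBF1 was not tested. MBTPS1, the protease that starts SREBP cleavage, was called lower as well (-0.56). INSIG1 (1.5) and INSIG2 (1.44), which hold the SREBP complex in the endoplasmic reticulum, were called higher, as was the adipocyte and myeloid factor CEBPA (3.77). The calls of SREBF1 and INSIG1 held under 7 and 8 of the same 15 settings, and that of SREBF2 under all 15 but not without the first and second NC pigs together (-1.87, adjusted p = 0.0899, limma). MLXIPL, the carbohydrate-responsive factor ChREBP, was 0.482 to 2.45 FPKM in the NC pigs and 0.782 to 1.87 FPKM in the HFCF pigs (-0.17, adjusted p = 0.849, limma).

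Of 19 tested enzymes of cholesterol synthesis, 7 were called lower and 1, FDPS, higher, with a median log2 fold change of -0.70. After each of the 3 scalings 0 were called higher and 7 to 11 lower. Among the genes called lower were SQLE (-2.01), TM7SF2 (-1.91) and DHCR7 (-1.82). Their median lay 1.02 below that of all genes, beside 0.94 below for the 10 fatty acid enzymes. Of 21 tested enzymes of fatty acid oxidation, 3 were called higher, ACADM (0.88), SLC25A20 (0.80) and ETFA (0.79), and 1 lower, HADHA (-0.47), with a median of 0.15. After the 3 scalings 0 to 1 of those 21 were called higher and 2 to 4 lower.

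**Figure D5:**
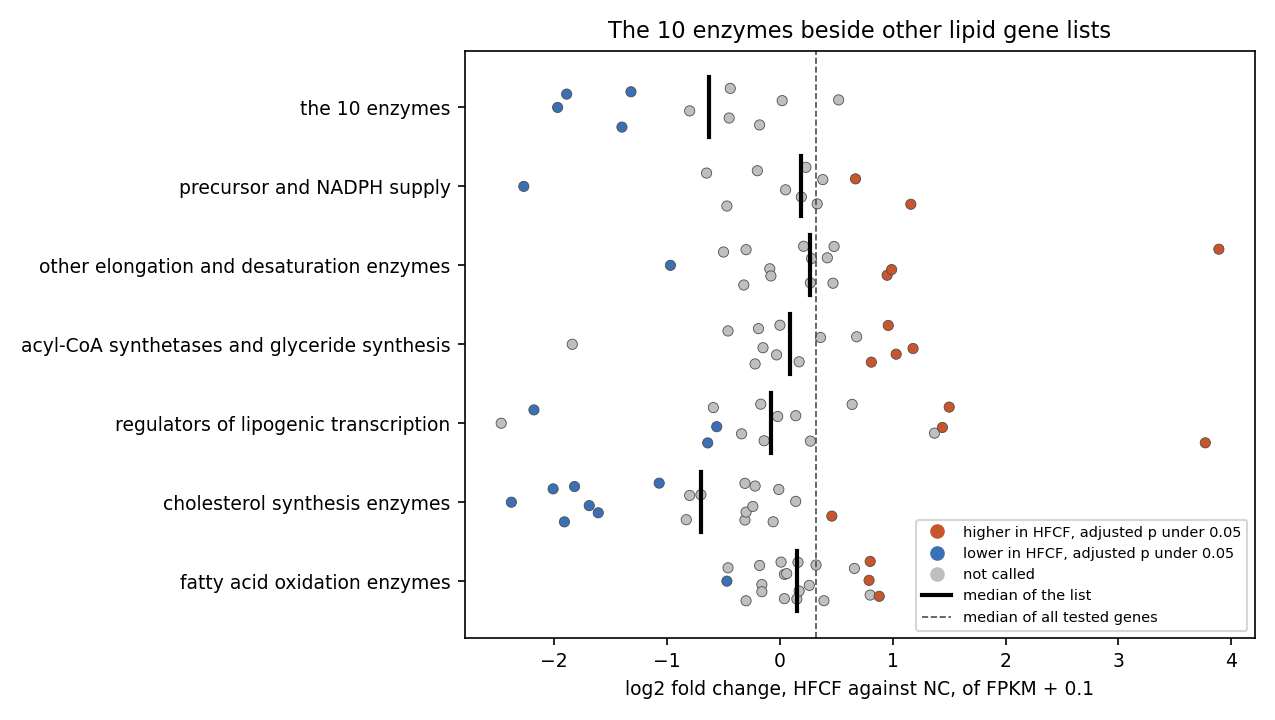
Log2 fold change of FPKM + 0.1, HFCF against NC, of every tested gene of 7 lists, coloured by call, with the list's median (black bar) and the median of all tested genes (dashed line at 0.32). Vertical scatter within a list carries no value. The 10 enzymes and the cholesterol synthesis enzymes have medians of -0.62 and -0.70, and the other lists lie between -0.08 and 0.27.

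The annotation deposited with the values gives a wider view of the same chemistry. Its KEGG pathway of fatty acid biosynthesis had 9 tested genes, of which ACACA and FASN were called lower and ACSL1, ACSL4 and ACSL5 higher (median log2 fold change 0.21). After each of the 3 scalings 0 of the 9 were called higher and 2 lower. Its pathway of unsaturated fatty acid biosynthesis had 23 tested genes, of which FADS1 and SCD5 were called lower and HACD2, HACD3, HACD4 and the thioesterase ACOT7 higher (median 0.04). After each of the 3 scalings 3 of the 23 were called higher and 2 lower. ACOT7 was low, at means of 0.128 FPKM in NC and 0.557 FPKM in HFCF. Its call held under 3 of 14 settings of scaling, filter, model and single libraries left out.

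Across the 6 libraries, the members' log2 levels were compared with those of 9581 other genes that have a symbol and a mean of at least 1 FPKM. These values are descriptions over 6 points that fall into the diet groups. Each was picked as among the highest of 9581, which by itself makes r high, so they do not show shared regulation. ACLY and ACACA were among the 3 most alike genes of each other (Pearson r = 0.995). FASN was most like TAF5L (r = 0.999), FADS1 most like ATP5F1A (r = 0.998) and AACS most like SLC6A17 (r = 0.998). FILIP1 was among the 3 genes most like ME1 (r = 0.994). The genes most like SCD were SRBD1 and TDRD10 (r = 0.992 each), and those most like FADS2 were DKK3 (r = 0.995) and EMILIN1 (r = 0.993). ELOVL5 was most like HELZ (r = 0.983), and ELOVL6 most like NDRG4 and SOX17 (r = 0.972 each).

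Among the members themselves, ACLY, ACACA and FADS1 ran together (r = 0.98 to 0.99). FASN followed them at 0.91 to 0.92 and ME1 followed FASN at 0.91. SCD ran with ELOVL5 (r = 0.75) and against AACS (r = -0.71) and FADS2 (r = -0.69).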

How the data were processed

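Abdominal aorta RNA of 3 NC and 3 HFCF pigs was sequenced as paired-end reads. The submitters' processing notes name cutadapt 1.9, FastQC and HISAT2. The deposited unit is FPKM, 1 value per gene and library, which the authors made after HISAT2 alignment to the pig reference and StringTie assembly. How FPKM was calculated is not given in the sources used here. The methods name another build than the reference tables at hand, so no coordinates are printed. FPKM of 0.0001 or less was read as 0.

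The filter kept genes whose FPKM averaged 0.1 or more. Their log2(FPKM + 0.1) was fitted by limma 3.58.1 in R 4.3.3 on diet alone, with moderated variances following the mean level, after a check on simulated data. This is the test used here, since the methods name only R and thresholds for single genes. In the simulated data, 200 genes were changed, shared equally between log2 sizes of 1 and 2. Of these, 17 of size 1 and 58 of size 2 were called. The pigs' data had 4453 calls, so their adjusted p is less strict than in the simulation. The simulated counts therefore do not give the share of real differences found. A gene not called may still differ. Ratios within a pig were compared by exact permutation. Replicate numbers did not pair the samples.

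The members, lists and ratios were chosen with earlier results of these data known, and the KEGG lists after the files were seen. All 10 members are named. Of each pathway list the called genes averaging 1 FPKM or more, at most 4 in each direction, and of each marker list the 3 most abundant are named, and other genes were chosen after their values were seen. For each member up to 3 most correlated genes were drawn on. List genes without a symbol in the table were matched through Ensembl identifiers (5 genes). Reads, lipidomics and staining were not analysed here, and some genes that the naming rule picks are not reported here.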

Additional observations from a re-analysis of the deposited data

How the results depend on the processing

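The number of genes called over all tested genes was 4453 with the settings of the report. It was 2516 without a filter on low values, 2772 with a replicate block, 2421 to 3596 with each library left out in turn, the lowest without the first NC pig, and 8 without the first and second NC pigs together. Deviations from the group means in libraries of the same number correlated at 0.021, -0.079 and -0.072 across genes, so the numbers were not read as pairs, and the replicate block left 4 members called lower. Members called lower numbered 4, with 3 to 5 with each library left out and 5 to 6 after the 3 scalings. Without a filter they numbered 2, FADS1 and ACLY, of which only FADS1 was among the 4. Members called higher numbered 0, and 0 to 1 with each library left out, the 1 being SCD without the third HFCF pig. The direction reversed for ELOVL5 after median-ratio scaling (-0.34), quantile normalization (-0.13) and rescaling to TPM (-0.24), and with single libraries left out it ran from -0.24 to 0.16. For ELOVL6 it reversed without the second NC pig (0.11) and without the first and second NC pigs (0.41), and with single libraries left out it ran from -0.47 to 0.11. Over the 10 members, 133 of the other values kept direction and side of the threshold, 10 gained a call and 9 lost one. The cause of these shifts was not tested. No fold change of SCD, FADS2, ME1, ACLY, FASN, FADS1, ACACA or AACS changed sign in any alternative, and none of the ratios did. Depth per gene is not known from FPKM, so the precision of ME1 and ELOVL6 rests on 3 pigs a group.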
